A study of Mus musculus with 12 samples.

Results

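The lysosomal system is described here through 45 genes: the TFEB-family transcription factors, acid hydrolases, lipid-handling proteins, membrane proteins and subunits of the vacuolar proton pump (V-ATPase). They were chosen by name for their known roles, with earlier results of these data known. Shares over them, set beside those of all genes, are therefore descriptions. All 45 were found among the 55357 gene identifiers of the tables. They were 3 transcription factors, 9 proteases, 12 glycosidases and sulfatases and 8 genes of lipid handling. A further 6 were of the membrane or associated with it, and 7 of the proton pump. RNA was sequenced in 12 libraries, 3 in each of 4 groups. The cell groups were RAW264.7, an established mouse macrophage-like line, wild type in every library. They were given 25 µg/mL of DIL-oxLDL (oxidized low-density lipoprotein with a fluorescent dye) for 24 h. With it they were given 40 µg/mL of esculetin, a plant coumarin, or its solvent DMSO. Every cell library therefore comes from cells given oxLDL, and the comparison holds no cells without it. The liver groups were male C57BL/6J mice aged 8 to 9 weeks, gavaged for 7 days with 90 mg/kg/day of esculetin or with its vehicle, 2.5% Tween-80, and fed first for 4 days on a control diet (10% of kcal from fat) and then for 3 days on a high-fat diet (60%). Per the study, each liver sample pooled 2 mice. No label ties the cell samples to separate cultures, so their p-values measure the spread between these samples, which may be technical.

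Lysosomes are acidic organelles that break down material delivered by endocytosis, phagocytosis and autophagy. Macrophages load theirs heavily when they take up modified lipoproteins, whose cholesteryl esters are split there before the cholesterol leaves. The V-ATPase pumps protons into the lumen and so sets the pH at which the hydrolases work. TFEB, TFE3 and MITF are related factors that enter the nucleus when mTORC1 signalling at the lysosome is low and bind E-box sequences in the promoters of many lysosomal genes.

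The libraries held 14659876 to 20346460 counts in the liver and 13752842 to 20001959 in the cells. Levels are given as CPM (counts scaled to library size) with edgeR's TMM factors. Where genes of different length are set side by side, TPM is given. It is counts per length of the gene's exons, scaled to their own total in each library without TMM factors. Calls rest on edgeR's two-sided quasi-likelihood test, with an adjusted p-value under 0.05 after adjustment over all genes tested in the table. The macrophage markers Csf1r, Lyz2 and Cd68 were at 499 CPM or more in every cell library, whereas C1qa, C1qb and Timd4 had 0 counts in all 6 and Clec4f and Vsig4 had at most 3. The summed level of the 11 Kupffer cell and macrophage markers was 1958 to 2179 CPM in the control cells and 4686 to 7221 in the esculetin cells. Of the 11 markers, 5 passed the filter on low counts and were tested. Of these, 3 were called higher (Csf1r, Lyz2, Adgre1) and Cd5l was called lower. Macrophage genes thus moved beside the lysosomal ones, and their part in the results below was not tested. Of 4 cholangiocyte markers only Spp1, which macrophages also express, was tested, and it was called higher. The list's sum went from 797 to 918 CPM in the controls to 4793 to 9730 CPM, with Krt19 at 0 in all libraries. Of 6 monocyte and neutrophil markers only Ccr2 was tested, and it was called higher (list sum 0.108 to 0.292 CPM against 2.42 to 4.09 CPM). Of 4 adipose markers only Fabp4 was tested, and it was called higher (list sum at most 1.67 CPM). Ly6g, Retnlg and Plin1 were at 0. Of 8 endothelial and stellate cell markers 2 were tested, and only Col1a1 was called (lower). Of 6 lymphocyte markers 1 was tested and was not called, and no hepatocyte marker was tested. The part of these markers in the results was not tested either. The 6 hepatocyte markers had at most 3 counts in any cell library.

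In the oxLDL-loaded macrophages the lysosomal genes moved in both directions. All 45 were tested, of which 25 were called higher with esculetin, 10 lower and 10 in neither direction. That is 77.8% called, where 57.7% of all 13277 tested genes were called, 28.7% higher and 29% lower. The control and esculetin libraries did not overlap for 36 of the 45, 26 higher and 10 lower, beside 64.1% of all genes, 31% higher and 33.1% lower. The log2 fold change was above 0 for 30 of the 45, beside 49.3% of all genes. By the study's own criterion, a fold change over 1.5 at an unadjusted limma-voom p-value under 0.05, 18 of the 45 were called, 14 higher and 4 lower, beside 38% of all genes, so the share over the 45 is near the background there. The median log2 fold change was 0.33 over the 45 genes and -0.01 over all genes tested. The plot of the fold changes by role shows all 7 pump genes on the higher side, the enzymes on both sides and TFEB and TFE3 on the lower side. In the liver 0 genes of the 44 tested were called.

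**Figure D1:**
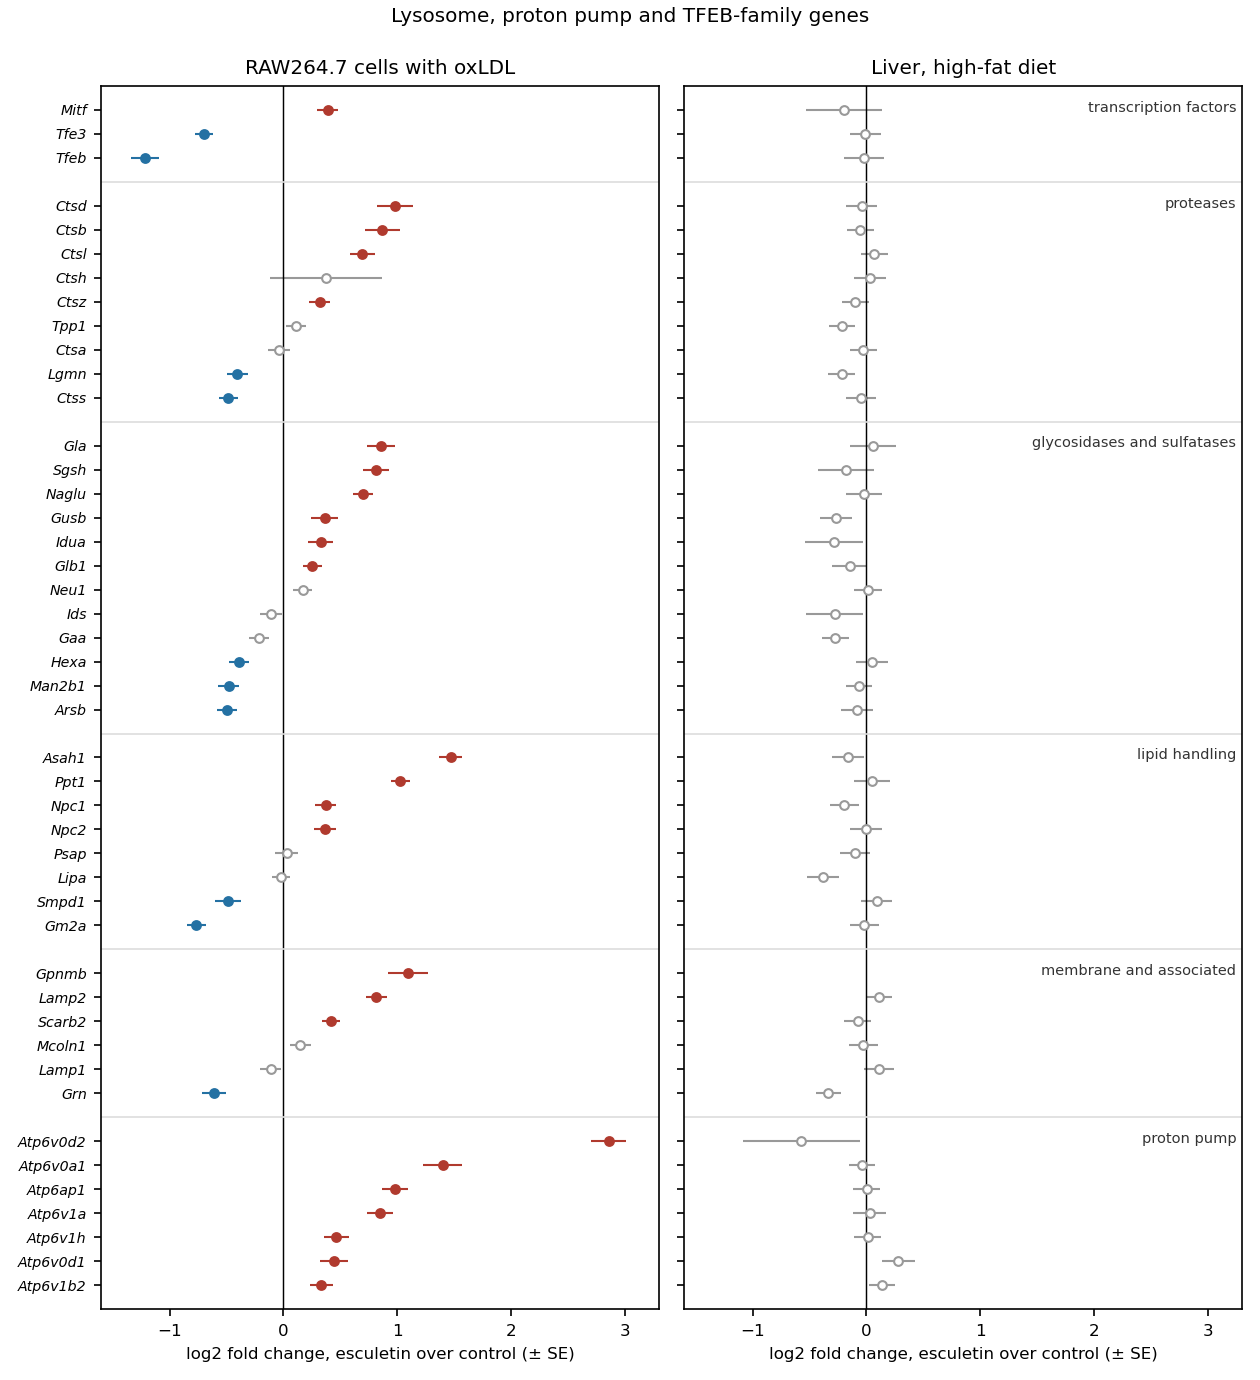
Log2 fold change, esculetin over control, with its standard error from edgeR (bars), for each gene in the RAW264.7 cells (left) and the liver (right), grouped by role. Filled points passed the adjusted p-value of 0.05 (red higher, blue lower) and open points did not. In the cells 35 points are filled, and in the liver none of the 44.

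The transcription factors came apart. Tfeb (ENSMUSG00000023990, GRCm39 chromosome 17, 48047837 to 48103348), the factor that gives the network its name, was at 21.0, 24.7 and 24.3 CPM in the 3 control libraries and at 10.8, 9.88 and 9.48 CPM with esculetin. The groups lay well apart, and Tfeb was 2.32-fold lower (log2 fold change -1.22, SE 0.13, edgeR adjusted p-value 1.2e-05). Tfe3 (chromosome X, 7628761 to 7641444), its close relative, was at 140.5, 151 and 150.4 CPM in the controls and at 91.2, 87.5 and 94.2 CPM with esculetin. It fell by 0.70 on the log2 scale (SE 0.08, edgeR adjusted p-value 2.52e-05). Mitf (chromosome 6, 97783950 to 97998323), which serves in osteoclasts, pigment cells and macrophages, went the other way. Its values were 90.2, 80.4 and 78.4 CPM in the controls and 118, 108 and 99.8 CPM with esculetin (log2 fold change 0.39, SE 0.09, edgeR adjusted p-value 0.00448). The summed TPM of the 3 factors was 113 to 114 in every control library and 85.0 to 91.4 with esculetin. These are mRNA levels, and where the proteins were in the cell was not measured.

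Letters of the site that these factors bind were looked up in the RefSeq promoter windows (GRCm38.p6), which span 250 bases before to 50 after each annotated start. Of the 45 genes, 38 had a window, 46 windows in all. The E-box CACGTG, which reads the same on both strands, was in 28.3% of these windows and in 7.15% of all 32851 windows in the table. CACGTGA on either strand, which contains the E-box and lies inside the CLEAR element of lysosomal promoters, was in 26.1% and 3.77%. By gene, 13 of 38 (34.2%) held the E-box, beside 8.09% of all genes, with 4 of 7 proteases, 5 of 12 glycosidases and sulfatases, 2 of 6 membrane genes and 2 of 4 pump genes, and 0 of the 6 lipid-handling genes and of the 3 transcription factors that had a window. It was present in 8 of 19 genes called higher in the cells, 1 of 10 called lower and 4 of 9 not called. The genes were picked as lysosomal, and such genes are known for this element, so its share over them is a description. The stretches below show the E-boxes, in capitals, of the 8 genes called higher, of Lgmn, the only gene called lower that holds one, and of Lamp1, which holds 4 and was not called.
Atp6v0d1: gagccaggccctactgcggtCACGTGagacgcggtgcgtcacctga
Atp6v1a: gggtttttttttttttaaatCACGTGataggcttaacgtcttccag
Ctsd: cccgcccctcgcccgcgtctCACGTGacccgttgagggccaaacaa
Ctsl: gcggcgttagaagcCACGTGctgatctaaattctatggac
Gla: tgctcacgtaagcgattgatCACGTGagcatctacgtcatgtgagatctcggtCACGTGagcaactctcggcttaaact
Glb1: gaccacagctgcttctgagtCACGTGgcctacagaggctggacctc
Naglu: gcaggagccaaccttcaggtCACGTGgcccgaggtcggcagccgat
Sgsh: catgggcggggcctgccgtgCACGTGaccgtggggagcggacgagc
Lgmn: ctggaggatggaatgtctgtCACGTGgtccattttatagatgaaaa
Lamp1: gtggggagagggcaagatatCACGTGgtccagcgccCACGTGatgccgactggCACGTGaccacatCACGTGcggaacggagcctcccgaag

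These stretches are printed 5′ to 3′ on the strand of the gene, and each was placed in GRCm39 by an exact match of its window. The pump stretches lie at chr8:106292674-106292719 on the minus strand for Atp6v0d1 and chr16:43959728-43959773 on the minus strand for Atp6v1a. In Atp6v0d1 the E-box begins 3 bases before the annotated start, and in Atp6v1a 131 bases before it. The proteases lie at chr7:141941637-141941682 (minus) for Ctsd, which has a further E-box at the far end of its window, chr13:64518545-64518584 (minus) for Ctsl and chr12:102405375-102405420 (minus) for Lgmn. The glycosidases and sulfatases lie at chrX:133501923-133502001 (minus) for Gla, chr9:114230078-114230123 (plus) for Glb1, chr11:100960827-100960872 (plus) for Naglu and chr11:119246340-119246385 (minus) for Sgsh. The Lamp1 stretch lies at chr8:13209080-13209171 (plus), with its last E-box 15 bases before the start. Atp6v0a1, Atp6ap1 and Gpnmb, all called higher, held no CACGTG in their windows, which says only that these letters are not in those 300 bases. Atp6v0d2, Atp6v1b2, Atp6v1h, Asah1, Ctsb, Ctsh and Npc1 had no entry.

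The proton pump was the role whose members all rose, where 28.7% of all genes tested in the cells were called higher. Atp6v0d2 (ENSMUSG00000028238, chromosome 4, 19876838 to 19922614) encodes an isoform of the d subunit, which joins the membrane sector V0 to the cytosolic sector V1, and is known from osteoclasts and macrophages. It was at 13.5, 10.7 and 11.0 CPM in the controls and at 68.4, 86.4 and 101 CPM with esculetin. The lowest esculetin library lay far above the highest control, and the 7.26-fold rise (log2 fold change 2.86, SE 0.15, edgeR adjusted p-value 1.55e-07) was the largest among the 45 genes. Atp6v0d1, which encodes the widely expressed d isoform, rose from 102, 126 and 121 CPM to 130.0, 165 and 178 CPM (log2 fold change 0.44, SE 0.12, edgeR adjusted p-value 0.00914). Its groups were separated only narrowly. Per length, Atp6v0d2 held 18.2%, 12.5% and 13.2% of the TPM of both d isoforms in the control cells and 46.8%, 46.6% and 48.5% in the esculetin cells.

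The other V0 gene, Atp6v0a1 (chromosome 11, 100881700 to 100954548), encodes an isoform of the a subunit, through which protons cross the membrane. Its values were 30.4, 33.9 and 28.8 CPM in the controls and 61.3, 76.2 and 107 CPM with esculetin, so no control library reached the lowest treated one (log2 fold change 1.40, SE 0.17, edgeR adjusted p-value 4.19e-05). Against the other a isoforms, it held 7.98% to 9.78% of the TPM of Atp6v0a1, Atp6v0a2 and Tcirg1 in the controls and 11.7% to 14.9% with esculetin. Tcirg1, the a3 isoform of lysosomes and osteoclasts, held 58.8% to 60.8% and 63.0% to 64.2%. It thus remained the leading a isoform by level in all 6 cell libraries.

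Atp6ap1 (chromosome X, 73340697 to 73348328) encodes an accessory protein needed to assemble the pump. It was at 208, 228 and 225 CPM in the controls and 359, 439 and 503 CPM with esculetin (log2 fold change 0.98, SE 0.12, edgeR adjusted p-value 3.04e-05). Atp6v1a (chromosome 16, 43887852 to 43960076), the catalytic A subunit of V1, was the most abundant of the 7 in CPM. It rose from 578, 508 and 534 CPM to 824, 960.4 and 1130.3 CPM (log2 fold change 0.85, SE 0.12, edgeR adjusted p-value 9.11e-05). Atp6v1h and Atp6v1b2, further V1 subunits, rose less, with log2 fold changes of 0.47 and 0.33 (edgeR adjusted p-values 0.00437 and 0.015). The 7 genes summed to 1172 to 1184 CPM in the controls, a narrow range, and to 1735, 2051 and 2410 CPM in esculetin replicates 1, 2 and 3, a ratio of means of 1.75. The plot of the pump genes and factors by library shows these separations.

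**Figure D2:**
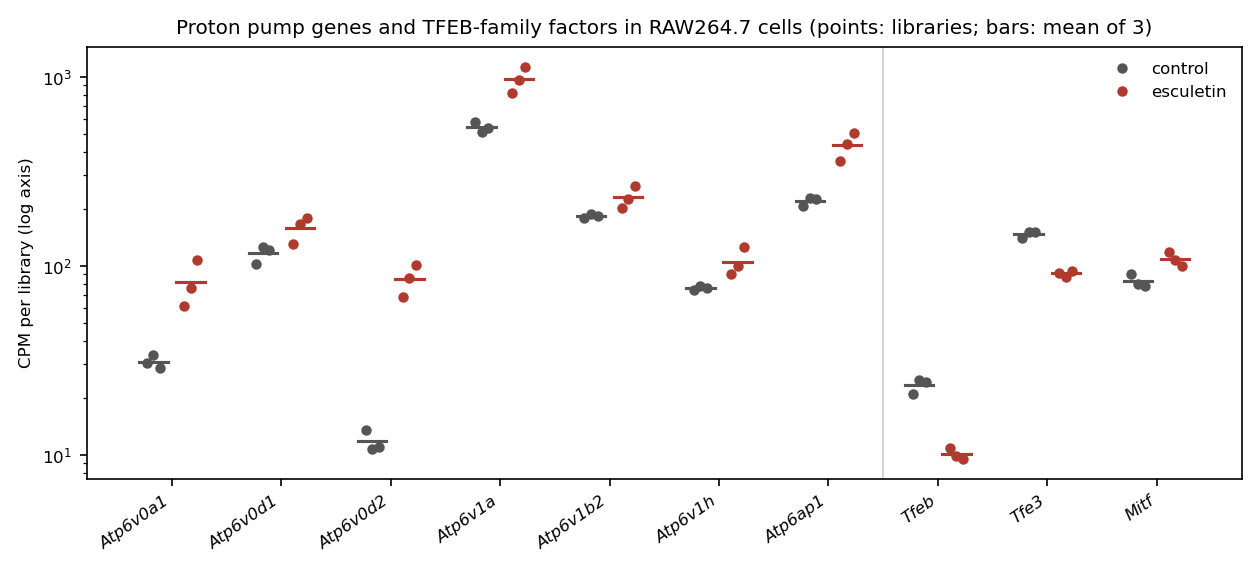
CPM on a log axis in each RAW264.7 library for the 7 proton pump genes and the 3 TFEB-family factors, with points for libraries, bars for the mean of 3, control in grey and esculetin in red. The esculetin points lie above the control points for every pump gene and for Mitf, and below them for Tfeb and Tfe3.

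The esculetin libraries differed among themselves along a common line. In all 7 pump genes, replicate 1 was the lowest and replicate 3 the highest of the esculetin libraries, and the same held for 17 of the 25 genes called higher (68%), beside 41.6% of the 3812 genes called higher in the whole table. The macrophage marker sum was likewise lowest in replicate 1, at 4686 CPM, and highest in replicate 3, at 7221 CPM. Lyz2 made up the largest part of that sum, at 2584, 3200 and 4704 CPM in replicates 1, 2 and 3. Csf1r and Cd68 ran in the same order, and Adgre1 in the opposite order (44.2, 41.3 and 40.15 CPM). Total counts also rose from replicate 1 to 3 (13752842, 14954496 and 18801094), and the part of depth was not tested. Without esculetin replicate 3, Gusb was the 1 gene of the 25 that lost its call, and the 7 pump genes were called higher whichever library was left out.

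Among the proteases, 4 of 9 rose, 2 fell and 3 were not called (66.7% called, beside 57.7% of all genes tested in the cells). Ctsd, the aspartic protease cathepsin D, was at 452, 538 and 493 CPM in the controls and 740.3, 949 and 1233 CPM with esculetin (log2 fold change 0.98, SE 0.16, edgeR adjusted p-value 0.000271). Ctsb, the cysteine protease cathepsin B, went from 1556, 1776 and 1653 CPM to 2309, 3041 and 3751 CPM (log2 fold change 0.87, SE 0.15, edgeR adjusted p-value 0.000527). Ctsl, cathepsin L, went from 197, 207 and 195 CPM to 265, 337 and 366 CPM (log2 fold change 0.69, SE 0.11, edgeR adjusted p-value 0.000287). All 3 rose without overlap of the groups, and Ctsz followed with a log2 fold change of 0.32, a call that was lost without esculetin replicate 2 (edgeR adjusted p-value 0.0531). Ctss, cathepsin S, which trims the invariant chain for antigen presentation, was at 417, 417 and 424 CPM in the controls and at 273, 319.5 and 307 CPM with esculetin. It fell by 0.48 on the log2 scale (SE 0.08, edgeR adjusted p-value 0.000496). Lgmn, the asparaginyl endopeptidase that processes several cathepsins, fell by 0.41 (edgeR adjusted p-value 0.00291). Tpp1 was not called, nor was Ctsh, which lay at 0.781 to 2.78 CPM. Ctsa, a carboxypeptidase that shields beta-galactosidase and sialidase, was among the most abundant of the 45 per length and was not called. Its libraries read 1464, 1691 and 1559.8 CPM in the controls and 1591, 1559 and 1439.7 CPM with esculetin, and the groups overlapped.

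Of the 12 glycosidases and sulfatases, 6 rose, 3 fell and 3 were not called. The share called was 75%, beside 57.7% of all genes tested in the cells. Naglu and Sgsh both act on heparan sulfate. Naglu was at 59.7, 69.8 and 66.5 CPM in the controls and at 108, 100.5 and 109.6 CPM with esculetin (log2 fold change 0.70, SE 0.09, edgeR adjusted p-value 5.38e-05). Sgsh was at 22.4, 23.6 and 27.3 CPM in the controls and at 39.6, 44.9 and 44.4 CPM with esculetin (log2 fold change 0.82, SE 0.11, edgeR adjusted p-value 9.55e-05). Both stood clear of their controls. Gla, alpha-galactosidase A, which is lacking in Fabry disease, rose from 24.8, 26.4 and 26.1 CPM to 38.5, 47.8 and 53.4 CPM (log2 fold change 0.86, SE 0.13, edgeR adjusted p-value 0.000146). Gusb, Idua and Glb1 rose by 0.25 to 0.36 on the log2 scale, with edgeR adjusted p-values of 0.0194 to 0.0226, and these 3 calls were lost under some settings.

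Arsb, the sulfatase of dermatan and chondroitin sulfate, moved down. It was at 572, 675 and 635 CPM in the controls and at 456, 454 and 425 CPM with esculetin (log2 fold change -0.50, SE 0.09, edgeR adjusted p-value 0.000587). Man2b1, the lysosomal alpha-mannosidase, fell by 0.48 on the log2 scale, and Hexa, the alpha chain of beta-hexosaminidase, fell by 0.39. Gaa, the glycogen-splitting glucosidase, was just outside the threshold (log2 fold change -0.21, edgeR adjusted p-value 0.0572) and was called in 5 of 14 other settings. Ids and Neu1 were not called. Since several abundant enzymes fell, the summed TPM of the 12 genes was 1523 to 1672 in the controls and 1367 to 1541 with esculetin, although more of them rose than fell.

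In lipid handling, 4 of 8 genes rose, 2 fell and 2 were not called (75% called, beside 57.7% of all genes tested in the cells). Asah1 (chromosome 8, 41792846 to 41827851), acid ceramidase, which splits ceramide into sphingosine and a fatty acid, was at 86.0, 77.4 and 73.6 CPM in the controls and at 190.1, 235 and 231 CPM with esculetin. After Atp6v0d2 it had the largest rise of the 45 genes, 2.77-fold (log2 fold change 1.47, SE 0.10, edgeR adjusted p-value 8.67e-07). Ppt1 (chromosome 4, 122730010 to 122754948), the thioesterase that removes palmitate from proteins, went from 334, 366 and 350.2 CPM to 711, 741 and 688 CPM (log2 fold change 1.03, SE 0.08, edgeR adjusted p-value 1.9e-06). Npc1 and Npc2, which hand cholesterol out of the lysosome, rose together by 0.37 and 0.36 on the log2 scale (edgeR adjusted p-values 0.00462 and 0.00688).

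Gm2a (chromosome 11, 54988883 to 55003855), the activator that presents ganglioside GM2 to hexosaminidase, fell. It was at 238, 277 and 269.7 CPM in the controls and at 154, 159 and 148 CPM with esculetin (log2 fold change -0.77, SE 0.09, edgeR adjusted p-value 2.13e-05). Smpd1, acid sphingomyelinase, which makes ceramide, went from 48.8, 60.5 and 58.9 CPM to 35.9, 44.2 and 39.5 CPM (log2 fold change -0.49, SE 0.11, edgeR adjusted p-value 0.00335). Lipa, the acid lipase that frees cholesterol from its esters, had values of 298, 316 and 319 CPM in the controls and 316, 314 and 288 CPM with esculetin. Its groups overlapped (log2 fold change -0.02, SE 0.08, edgeR adjusted p-value 0.807). Psap, the precursor of the saposins, had the highest TPM of the 45 in the control cells. It read 1029, 1179 and 1107 CPM in the controls and 1014, 1137 and 1229 CPM with esculetin, again with overlap.

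Of the 6 membrane and associated genes, 3 rose, 1 fell and 2 were not called. That is 66.7% called, beside 57.7% of all genes tested in the cells. Gpnmb (chromosome 6, 49013426 to 49047863), a glycoprotein of lipid-laden macrophages, went from 341, 345 and 368 CPM to 539.7, 693 and 1016 CPM (log2 fold change 1.09, SE 0.18, edgeR adjusted p-value 0.000326). Lamp2 (chromosome X, 37488520 to 37545340), a major membrane glycoprotein of lysosomes, went from 256, 244 and 233 CPM to 392, 438 and 463 CPM (log2 fold change 0.82, SE 0.09, edgeR adjusted p-value 1.65e-05). Its relative Lamp1 did not move with it, at 1504, 1650.5 and 1622 CPM in the controls and 1359, 1525 and 1537 CPM with esculetin (log2 fold change -0.11, edgeR adjusted p-value 0.328). Scarb2, which carries glucocerebrosidase to the lysosome, was at 123, 127 and 121 CPM and then 171, 168 and 156 CPM (log2 fold change 0.42, SE 0.08, edgeR adjusted p-value 0.000898). Grn (chromosome 11, 102321141 to 102327874), progranulin, was at 533, 613 and 612 CPM in the controls and at 333, 380.2 and 437 CPM with esculetin. It fell by 0.61 on the log2 scale (SE 0.11, edgeR adjusted p-value 0.000549). Mcoln1, a calcium channel of the lysosomal membrane, was not called (log2 fold change 0.15).

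Whether the counting used strand is not given in the sources used here, and some genes share exon bases with others. The share was 49.4% for Lamp1 (Grtp1), 36.9% for Ctsa (Pltp and Neurl2), 33.1% for Grn (Fam171a2) and 26.2% for Sgsh (Card14 and Slc26a11). For Ctsd, Ctsz, Ctsl, Idua, Arsb, Ctsb, Gusb and Npc1 it was 10.5% to 29.2%. Reads of such genes may have been shared out or dropped. In the cells the partners of Sgsh were called lower while Sgsh was called higher, but other partners moved with their genes. Vkorc1l1, beside Gusb, was higher by 0.62 on the log2 scale (edgeR adjusted p-value 0.000164), Dgkq, beside Idua, by 0.67 (edgeR adjusted p-value 0.00136) and Rmc1, beside Npc1, by 0.26 (edgeR adjusted p-value 0.0439), and the part of shared reads in these 3 genes was not tested. Pltp was called lower in both tables while Ctsa was called in neither, and Fam171a2, also called lower, was at 2.87 CPM in the control cells beside 533 to 613 CPM of Grn.

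Summed levels per length were also compared by role, as values with no test. Over the 9 proteases, the TPM in the cells went from 4247, 4702 and 4495 to 4939, 5854 and 6367, a ratio of means of 1.28 with no overlap. The lipid-handling sum overlapped between the groups, with a ratio of 1.08, as did the membrane sum with 0.978. In CPM with TMM scaling these ratios were 1.21, without overlap, and 1.11, with overlap. The pump sum had the highest ratio, 1.78, and the factor sum the lowest, 0.773. The glycosidase and sulfatase sum overlapped too, with a ratio of 0.910. The plot of the summed levels sets these beside the liver, where the ratios of the 6 roles ran from 0.886 to 1.03. There the summed TPM of the proteases (ratio 0.932), of the glycosidases and sulfatases (0.894) and of lipid handling (0.886) was lower in every esculetin library than in every control, but in CPM with TMM scaling the same sums overlapped between the groups (ratios 0.984, 0.934 and 0.916).

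**Figure D3:**
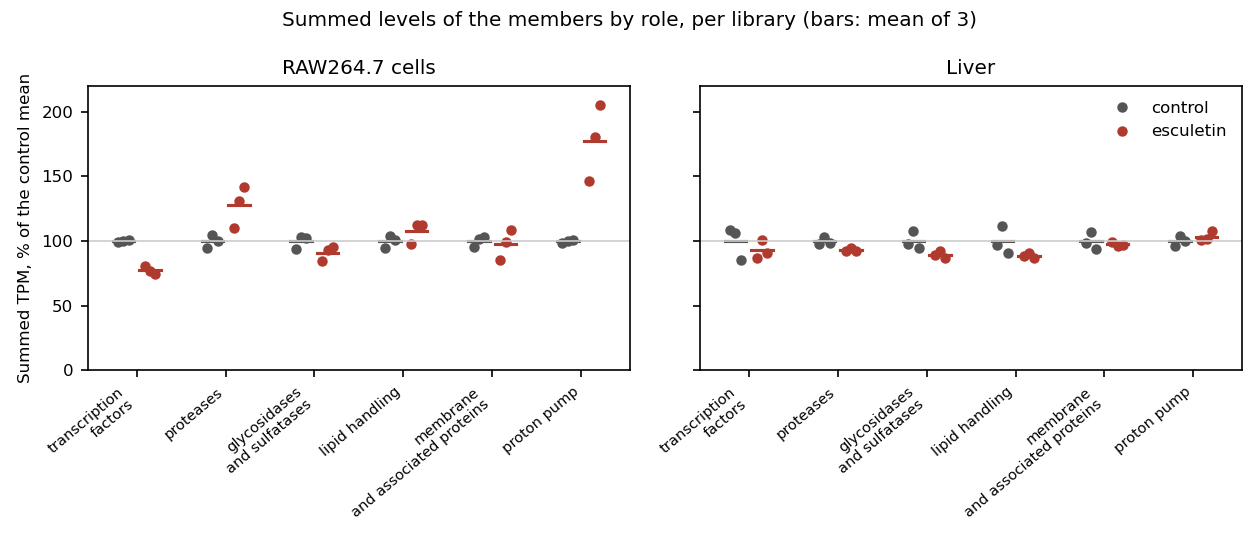
Summed TPM of each role in every library as a percentage of the control mean of that table, for the cells (left) and the liver (right), with points for libraries and bars for the mean of 3. In the cells the pump and protease points with esculetin lie above all control points and those of the transcription factors below. In the liver the esculetin points lie within or just below the control points in every role but the pump.

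Around the 45 genes, 101 further genes of the lysosome, its pump, its sorting pathway, nutrient sensing and autophagy were read from lists. Of these, 97 were tested in the cells, and 43 were called higher and 24 lower, 69.1% called, beside 57.7% of all genes, 28.7% higher and 29% lower. By the study's criterion 34 of the 97 were called, 26 higher and 8 lower, a share near the 38% of all genes. Among the other pump subunits, 10 of 13 were called higher and 2 lower. Atp6v1d, of the rotor stalk, rose by 0.83 on the log2 scale (SE 0.09, edgeR adjusted p-value 1.62e-05), Tcirg1 by 0.89 (SE 0.11, edgeR adjusted p-value 3.92e-05) and Atp6ap2, another accessory protein, by 0.78 (SE 0.09, edgeR adjusted p-value 1.99e-05). The exceptions were Atp6v1g2 and Atp6v0e2, named here after their values were seen, which fell by 1.28 and 0.30 on the log2 scale, and Atp6v1f, which was not called. Atp6v1g2 was low, at 2.96 CPM in the controls and 1.21 CPM with esculetin. The groups of Atp6v0e2 overlapped, and its edgeR adjusted p-value was 0.0496. With the other pump subunits added, 17 of the 20 tested pump genes were called higher and 2 lower.

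Sorting of enzymes to the lysosome moved as well, with 5 of 7 genes called higher and 2 lower. Over all genes tested in the cells, 57.7% were called, 28.7% higher and 29% lower. Gnptab and Gnptg encode subunits of the transferase that starts the mannose 6-phosphate tag on hydrolases. Gnptab rose from 194 ± 4.17 to 469 ± 60.3 CPM (SD, n = 3) and Gnptg from 6.46 ± 0.443 to 19.2 ± 2.22 CPM. M6pr, a receptor for the tag, rose by 0.65 on the log2 scale. Of 26 other hydrolases, 11 were called higher and 9 lower, 76.9% called beside those 57.7% of all genes. Hgsnat, which acetylates heparan sulfate in the lysosomal membrane, rose by 1.80 and Acp5, tartrate-resistant acid phosphatase, by 1.11 on the log2 scale. Of 17 tested membrane and transport genes, 9 were called higher and 4 lower, with Cd63, a tetraspanin of late endosomes, higher by 0.77, Ostm1, the partner of the chloride transporter of lysosomes, higher by 0.73 and Slc29a3, a nucleoside transporter, lower by a log2 fold change of -0.98.

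Nutrient sensing and autophagy genes were called in both directions. Of 15 sensing genes, 5 were called higher and 2 lower (46.7% called), and of 19 autophagy genes, 3 were called higher and 5 lower (42.1%), beside 57.7% of all genes. Rraga, a GTPase that brings mTORC1 to the lysosome, rose by 1.01 on the log2 scale (edgeR adjusted p-value 1.82e-05), Tsc2, of the complex that restrains mTORC1, rose by 0.39, and Lamtor2, a part of the scaffold for such GTPases, fell by 0.41. Of the autophagy genes, Uvrag, of a complex that makes phosphatidylinositol 3-phosphate, went from 134.9 ± 2.86 to 70.5 ± 0.315 CPM (SD, n = 3). Ulk1, the kinase that starts autophagy, went from 108.8 ± 0.482 to 56.3 ± 4.21 CPM, and Gabarapl1, an LC3 relative on autophagosomes, from 91.0 ± 1.76 to 44.2 ± 3.12 CPM. All 3 were called lower, with edgeR adjusted p-values of 2.38e-06 to 4.47e-06, the smallest of the list. The 3 autophagy genes called higher rose by 0.59 to 1.08 on the log2 scale. The plot of the further lists shows the pump and sorting medians to the right of 0 and that of autophagy near 0.

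**Figure D4:**
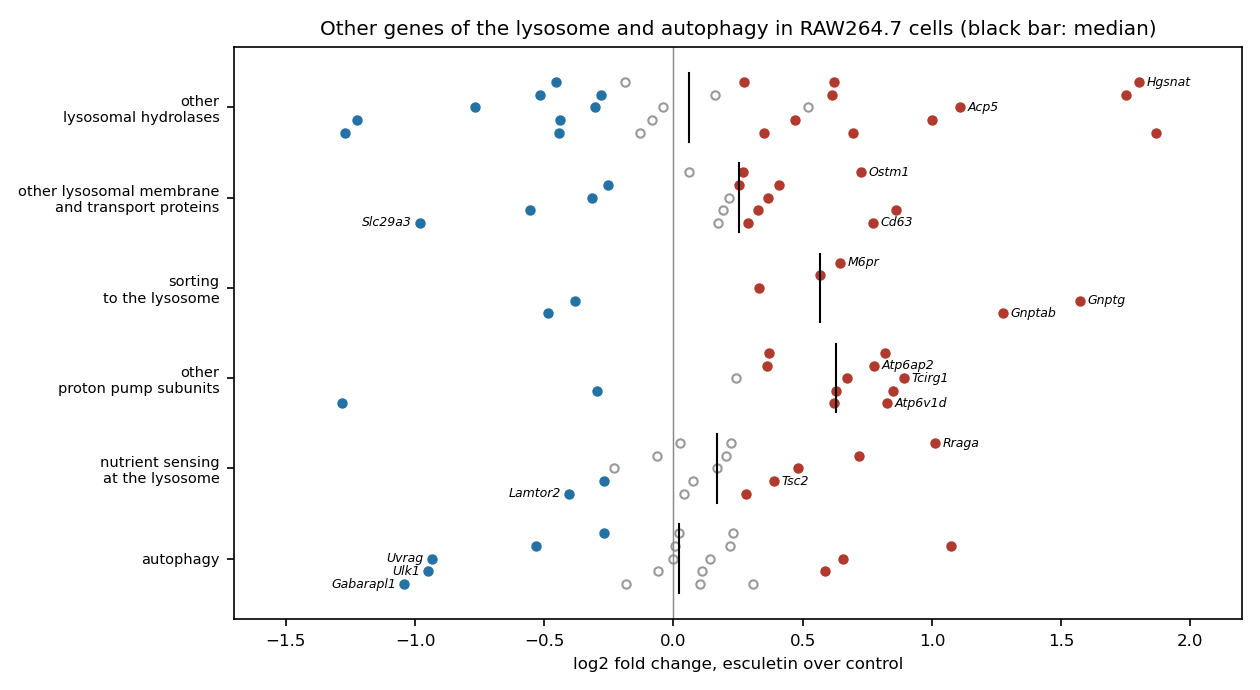
Log2 fold change in the RAW264.7 cells, esculetin over control, for 97 tested genes of 6 further lists, 1 point a gene, filled red (called higher), filled blue (called lower) or open (not called), with a black bar at each list's median. The medians are 0.63 for the other pump subunits, 0.57 for sorting and 0.02 for autophagy, and the vertical place of a point within its list has no meaning.

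In the liver, esculetin gave no call among these genes. All but Gpnmb were tested, and 0 of 44 were called, where 11 of 12813 genes were called in the whole table (0.0859%). DESeq2 and limma-voom also called 0. An unadjusted p-value under 0.05 was reached by 3 genes with edgeR, 2 with DESeq2 and 3 with limma-voom, and the edgeR genes were all lower, where 8.37% of all tested genes reached it and 4.98% were lower. By the study's criterion 0 of the 44 were called, beside 3.89% of all genes. The log2 fold change was above 0 for 14 of the 44, beside 46.5% of all genes. The smallest edgeR adjusted p-value was 0.428, the log2 fold changes ran from -0.57 to 0.28, and their median was -0.04, beside -0.02 over all genes. The SE of the log2 fold change had a median of 0.13 over these genes. A change as small as that of Glb1 in the cells (0.25) was not detectable in the liver at this depth and spread. Larger log2 fold changes, such as -0.38 for Lipa and -0.34 for Grn, were not called there, so 0 calls do not exclude changes of that size. In bulk liver, fewer cells of a type and less RNA per cell cannot be told apart.

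Grn had the smallest p-value of the 45 in the liver. It was at 125, 136 and 134 CPM in the controls and at 102, 105 and 107 CPM with esculetin, without overlap (log2 fold change -0.34, SE 0.11, edgeR adjusted p-value 0.428). Lipa was at 249.5, 261 and 197 CPM in the controls and at 169, 201 and 173 CPM with esculetin, where the groups just overlapped (log2 fold change -0.38, SE 0.14, edgeR adjusted p-value 0.486). Gaa was at 74.3, 79.0 and 70.2 CPM in the controls and at 56.5, 65.3 and 63.4 CPM with esculetin (log2 fold change -0.27, SE 0.12, edgeR adjusted p-value 0.556). None of these 3 passed the threshold. Tpp1 (log2 fold change -0.21) and Lamp2 (0.11) also had groups that did not overlap. These, with Grn and Gaa, make 4 genes of 44, 1 higher and 3 lower, beside 14.5% of all genes, 6.52% higher and 7.95% lower. Of the 11 Kupffer cell and macrophage markers none was called in the liver, and their sum was 540 to 687 CPM in the controls and 541 to 595 CPM with esculetin, so the groups overlapped.

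Other liver genes did not pass the threshold either. Lgmn had a log2 fold change of -0.22, Gusb of -0.26 and Npc1 of -0.19, all with edgeR adjusted p-values of at least 0.642. Tfeb was at 9.95, 8.29 and 7.57 CPM in the controls and at 8.66, 9.22 and 7.51 CPM with esculetin, with full overlap. Mitf lay at 1.63 to 2.83 CPM in the controls and 1.42 to 2.78 CPM with esculetin. Among the pump genes, Atp6v0d1 had the smallest p-value, with 68.2, 85.8 and 95.8 CPM in the controls and 91.6, 96.6 and 116 CPM with esculetin (log2 fold change 0.28, SE 0.15, edgeR adjusted p-value 0.636), followed by Atp6v1b2 (log2 fold change 0.14). Atp6v0d2 held 12 to 19 counts in the liver controls and 3 to 13 with esculetin, and 0.279% to 2.06% of the TPM of both d isoforms. Gpnmb, left out by the filter on low counts, had 0, 4 and 7 counts in the controls and 16, 4 and 9 with esculetin.

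By level per length, a few genes led in both tables. In the control cells Psap (1437 TPM), Lamp1 (1269 TPM) and Ctsa (1267 TPM) were highest, and Lamp1 and Ctsa differed by less than their spread. In the control liver Lamp1 (538 TPM), Psap (370 TPM) and Ctsd (313 TPM) were highest by the union of exons, with Ctsb (310 TPM) within the spread of Ctsd. With the longest transcript as length, Ctsb ranked 2, Psap 3, Lamp2 4 and Ctsd 5 in the liver. Lamp1 was at 709.5, 903 and 854 CPM in the liver controls and at 910.2, 849 and 906 CPM with esculetin, Psap at 308, 397 and 331 CPM and then 335, 315 and 317 CPM, and Ctsd at 213, 261 and 289.6 CPM and then 238, 245 and 258 CPM. In none of the 3 did the groups separate. Ctsh, a cysteine protease, was among the 6 highest of the 45 in the liver, at 208 TPM, and was the lowest in the cells, at 0.931 TPM.

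The responses of cells and liver were set against each other in a single edgeR model of all 12 libraries. Their difference was called for 22 of the 45 genes (48.9%), with 16 higher in the cells and 6 lower. Of all 15709 tested genes 27.1% were called, 13.4% higher and 13.7% lower. Those 15709 include genes left out of the liver fit (12813 tested) or the cell fit (13277 tested), so the shares are not over like genes. The largest differences were those of Atp6v0d2, 3.38 on the log2 scale (SE 0.46, edgeR adjusted p-value 7.46e-05), Asah1, 1.59 (SE 0.17, edgeR adjusted p-value 1.14e-05), and Atp6v0a1, 1.39 (SE 0.22, edgeR adjusted p-value 0.000223). On the lower side stood Tfeb, with a difference of -1.23 (SE 0.22, edgeR adjusted p-value 0.000757). For Atp6v0d1, Atp6v1b2 and Atp6v1h, which rose in the cells, the difference was not called (0.12, 0.15 and 0.41 on the log2 scale). Dose, route, duration, lipid load and cell makeup all differ between the tables and cannot be told apart as sources of these differences.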

How the data were processed

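The authors deposited raw counts per gene, 1 table for liver and 1 for cells. Per the study, they used paired-end reads, HISAT 2.2.1, GRCm39 and featureCounts, and the labels' processing notes name the same tools. The annotation release, strand setting and treatment of reads with several places were not given in the sources used here. Identifiers were matched to GENCODE of GRCm39 (54749 of 55357).

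The 45 genes and the further lists were chosen with earlier results of these data known. Each table was fitted alone with edgeR 4.0.16 (R 4.3.3): filterByExpr, TMM, glmQLFit and glmQLFTest, Benjamini-Hochberg over all tested genes. The SE of a log2 fold change is its size over the square root of F. TPM used the length of the union of exons. Errors are over 3 libraries and include counting error. A permutation test of 3 against 3 libraries cannot go below 0.1. Alternatives were other scalings and filters, DESeq2 1.42.0, limma-voom (limma 3.58.1), also with the study's criterion (unadjusted p-value under 0.05, fold over 1.5), a stricter threshold of 0.01, a replicate block and leaving out each library. The fits were tested on simulated counts. No 2 libraries of a group agreed within sampling noise (chi-square per degree of freedom at least 2.93). Named were, per role, the 4 genes with the smallest p-values in the cells and the 2 in the liver. The 3 highest by TPM in each table and genes under the filter were named too. Values in every library are given for them, with exceptions in the liver. There Tpp1, Lgmn, Gusb, Npc1, Lamp2 and Atp6v1b2 are given by log2 fold change and Mitf by range. Of the further lists, up to 3 called genes each were named, except for 1 gene that is not reported here. Promoter windows came from RefSeq (GRCm38.p6), matched by symbol.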

Additional observations from a re-analysis of the deposited data

Results flagged for a closer look

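Of the 45 genes, 22 were singled out because the esculetin effect differed between the cells and the liver by a test of the difference itself (edgeR, 4-group model, adjusted p-value under 0.05). The differences below are log2 fold changes in the cells minus those in the liver. Among the pump genes they were 3.38 for Atp6v0d2, 1.39 for Atp6v0a1, 0.93 for Atp6ap1 and 0.78 for Atp6v1a. Asah1 and Ppt1, of lipid handling, had differences of 1.59 and 0.94, and Npc1, the cholesterol exporter, 0.52. Of the proteases, Ctsd had 0.98, Ctsb 0.88 and Ctsl 0.58. The glycosidases and sulfatases gave 0.95 for Sgsh, 0.76 for Gla, 0.68 for Naglu and 0.58 for Gusb, and the membrane genes 0.66 for Lamp2 and 0.45 for Scarb2. On the lower side were Tfeb with -1.23, Gm2a with -0.79, Tfe3 with -0.72, Smpd1 with -0.63, Ctss with -0.48 and Man2b1 with -0.46. For each of these 22 genes the effect was called in the cells and not in the liver.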

How the results depend on the processing

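With 3 libraries per group, each result was recomputed under 14 other settings for the cells or liver. In the cells 31 of the 35 calls kept their direction and their side of the threshold in all 14, and in the liver 0 genes were called in any. Ctsz lost its call without esculetin replicate 2, Glb1 in 4 settings, Gusb in 3 and Idua in 5. Without each library in turn, the counts in the cells were 32 to 35 called, 22 to 24 higher and 10 to 11 lower. Changes of threshold are not among the 14 settings. At an edgeR adjusted p-value under 0.01, 30 genes were called in the cells, 20 higher and 10 lower. For the further lists it was 52, of which 35 higher and 17 lower. The study's criterion, which adds a fold threshold, gave 18 called genes in the cells, 14 higher and 4 lower, and for the further lists 34, of which 26 higher and 8 lower. Differences between cells and liver went from 22 (16 higher, 6 lower) to 13 (10 higher, 3 lower) at an adjusted p-value under 0.01. They ranged over 17 to 23, 13 to 20 higher and 3 to 8 lower when single libraries were left out. The 6 lower became 3 without liver control replicate 1, without liver esculetin replicate 1, without liver esculetin replicate 2 and without cell control replicate 2. Signs changed only for genes that were not called. Without each library in turn, the log2 fold changes in the liver ran from -0.124 to 0.0966 for Tfeb (0.0966 without control replicate 1 and 0.0413 without esculetin replicate 3, as against -0.0223), from -0.173 to 0.0127 for Psap and from -0.152 to 0.0444 for Ctsd. In the cells they ran from -0.0914 to 0.0218 for Ctsa, from -0.425 to 0.697 for Ctsh, from -0.0581 to 0.0139 for Lipa and from -0.0421 to 0.0985 for Psap. Psap was also at -0.0393 with scaling by library size only and at -0.0160 with no filter on low counts. The cause was not tested. Over the 45 genes, the median of the mean control TPM was 25.1 (liver) and 114 (cells) by the union of exons. By the longest transcript, which is shorter than the union for most genes, it was 36.1 and 150.8. Same-numbered libraries did not deviate together in every case (correlations of 0.17, -0.01 and 0.14 in the liver and 0.22, -0.04 and 0.15 in the cells). Whether the numbers mark pairs or batches is not given in the sources used here and was not tested. With a replicate block, 36 genes were called in the cells, 25 higher and 11 lower, with Gaa added, 72 of the further lists and 0 in the liver, and 22 differences were called. In the liver the block called 123 genes in the whole table against 11.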
